A study of Mus musculus with 4 samples.

Results

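The 39 Hox genes of the mouse were followed in male germ cells sorted from the testis at postnatal day 18. The members were all rows of the expression tables named as a gene of the HoxA, HoxB, HoxC or HoxD cluster, 39 of 24411 rows, with 11 genes in HoxA, 10 in HoxB, 9 in HoxC and 9 in HoxD. The study asked how loss of ZFP541, a zinc finger protein of meiotic prophase, alters the transcriptome of spermatocytes, and sequenced 2 libraries labelled Zfp541+/- (the controls) and 2 labelled Zfp541 KO. All 4 libraries came from male mice of a mixed C57BL/6 and CBA strain that carried a knock-in at Rec8 (Rec8-3xFLAG-HA-p2A-GFP), which couples GFP to this meiotic cohesin, and only GFP-positive cells were collected. The paper's methods differ on strain: they give a C57BL/6 background for the Zfp541 knockout and call the Rec8 knock-in congenic with C57BL/6. The knock-in was heterozygous in 1 control and homozygous in the other, and homozygous in both testes labelled Zfp541 KO. The sources used here do not say which control library is which. The Zfp541 KO allele was a genome-edited deletion that removed exons 1 to 13, and the labels do not name the mutant line behind each library. Each library was made from 1 testis, so the spread within a group is that between testes. In the controls this spread also holds the difference in knock-in genotype, which the KO-labelled pair lacks.

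Hox genes encode transcription factors that bind DNA through the homeodomain and give the embryo its identities along the head-to-tail axis. They lie in 4 clusters on 4 chromosomes, and genes of equal position in different clusters are called a paralogue group, numbered from the 3′ (anterior) to the 5′ (posterior) end. HOX proteins bind DNA together with PBX, MEIS and PKNOX cofactors, Polycomb proteins keep the clusters silent and trithorax proteins keep them active. In adult organs many cell types retain part of the pattern laid down in the embryo. In the male germ line the best known member is Hoxa4, which has long been studied for its transcripts in testis germ cells.

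Levels are given in TPM (transcript abundance), a length-scaled share of the RNA in a library. A mean of at least 1 TPM was taken as transcribed, a lower value as low, and 0 as listed at 0. TPM values keep no read depth, so the precision of the low values is unknown. By this measure 9 of 39 Hox genes (23.1%) were transcribed, against 59.4% of all rows. Hoxa11, Hoxa13 and Hoxc12 were listed at 0 in all 4 libraries, which is 7.69% of the Hox genes, against 20.9% of all rows.

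The labels were checked first. Zfp541 stood at 112 and 72.2 TPM under the label Zfp541+/- and at 136 and 151 TPM under Zfp541 KO. The targeted transcript was therefore higher, not lower, in both libraries labelled Zfp541 KO, although its exons 1 to 13 had been deleted. A gene-level TPM does not tell which exons the reads came from. The paper reports that ZFP541 protein was absent from Zfp541 KO testis by immunoblot, with diminished immunostaining. Why the transcript was higher was not tested. Both libraries are called KO-labelled, and every direction given here rests on the labels as they stand. Rec8, the gene that carries the GFP reporter, was at 7.05 and 27.9 TPM in Zfp541+/- and at 27.7 and 19.4 TPM in the KO-labelled libraries.

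Control 2 also stood apart in its makeup. The summed level of 6 Leydig cell markers (the androgen-making cells between the tubules) was 2910 TPM in control 1, 18.0 TPM in control 2, and 331 and 504 TPM in the KO-labelled libraries. The summed level of 7 macrophage markers was 2542 TPM in control 1, 28.8 TPM in control 2, and 2161 and 1583 TPM in the KO-labelled libraries, with Lyz2, C1qb and C1qa the most abundant. The 10 Sertoli cell markers, led by Inha, Amhr2 and Cldn11, summed to 372 to 506 TPM, and 13 spermatocyte markers, Sycp3 and Sycp1 of the synaptonemal complex among them, to 4614 to 7001 TPM. Spermatocyte RNA was thus abundant in every library, while RNA of interstitial cells was abundant in 3 and scarce in control 2. In bulk samples, fewer cells of a type and less RNA per cell cannot be told apart.

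**Figure D1:**
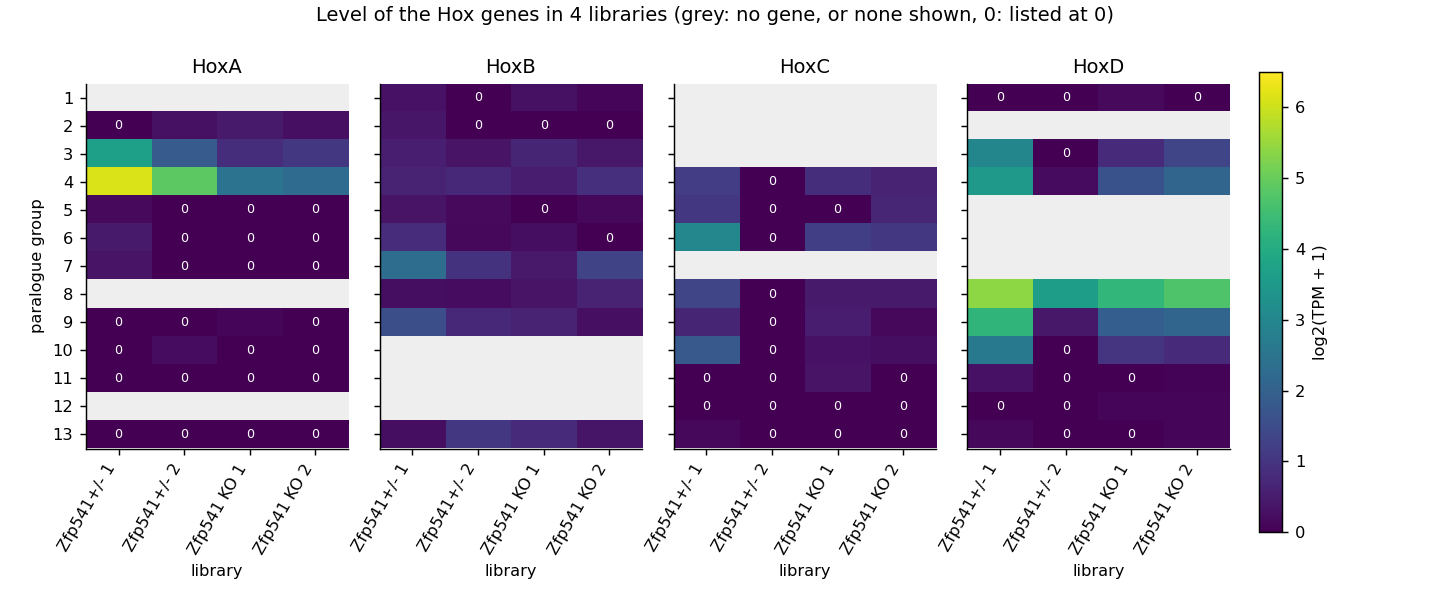
Level of the Hox genes, as log2(TPM + 1) by colour, with paralogue group down the side and library across, in 1 panel per cluster, with grey where there is no gene or none is shown. Hoxa4 and Hoxd8 are the brightest cells, the HoxC column of Zfp541+/- 2 is at 0 throughout, and most other cells are near 0.

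The clusters differed in how much was transcribed and in which library. HoxA summed to 82.3 and 31.0 TPM in Zfp541+/- and to 6.05 and 5.26 TPM in the KO-labelled libraries, and HoxD to 81.9 and 11.99 TPM against 25.7 and 34.5 TPM. HoxB was low in all libraries, at 8.95 and 4.05 TPM in Zfp541+/- and 3.35 and 3.93 TPM in the KO-labelled libraries. HoxC was at 14.1 TPM in control 1, at 0 in control 2, and at 3.38 and 2.92 TPM in the KO-labelled libraries. HoxA was thus the cluster with both controls above both KO-labelled libraries by a wide margin, HoxB also had both controls above but only just, and in HoxC and HoxD the KO-labelled libraries lay between the controls.

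A pair of genes made up most of the signal. Hoxa4 and Hoxd8 together gave 59.1% and 83.6% of the summed Hox TPM in Zfp541+/- and 60.8% and 62.6% in the KO-labelled libraries. Hoxa4 was the larger share in the controls, 37.1% and 59.2%, and Hoxd8 in the KO-labelled libraries, 49.0% and 54.4%. Central genes (paralogue groups 4 to 8) summed to 139 and 41.6 TPM in Zfp541+/- and 29.2 and 38.1 TPM in the KO-labelled libraries, above the anterior genes of groups 1 to 3 (3.09 to 19.8 TPM) and the posterior genes of groups 9 to 13 (2.25 to 28.7 TPM) in each library. No gene of paralogue groups 1, 2, 11 or 12 passed 0.39 TPM in any library.

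Hoxa4 and its paralogue Hoxc4 differ much in level, and their homeoboxes are printed here as the 180 bases that encode the homeodomain, 5′ to 3′ on the coding strand, from GENCODE M21 transcripts on build GRCm38. Capitals mark the bases that differ from Hoxa4. The homeobox of Hoxa4 lies at chr6:52190483-52190662 on the minus strand, and that of Hoxc4 at chr15:103035663-103035842 on the plus strand, both in coding exons.
Hoxa4: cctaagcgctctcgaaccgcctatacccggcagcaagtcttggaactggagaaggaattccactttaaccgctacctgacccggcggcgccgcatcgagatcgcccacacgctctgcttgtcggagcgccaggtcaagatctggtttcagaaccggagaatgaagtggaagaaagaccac
Hoxc4: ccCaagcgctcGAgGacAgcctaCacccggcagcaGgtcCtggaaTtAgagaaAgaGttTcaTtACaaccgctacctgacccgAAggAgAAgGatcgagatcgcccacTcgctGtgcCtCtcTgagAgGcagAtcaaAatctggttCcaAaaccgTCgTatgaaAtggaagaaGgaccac
Hoxc4 shared 78.9% of these bases with Hoxa4. Over whole transcripts, the longest run of identical bases that Hoxa4 shared with a Hox gene of another cluster was 23 bases, and no pair of the 569 pairs across clusters shared a run as long as the 75-base reads. No exact 75-base read therefore belongs to both genes of such a pair. Hoxa4 averaged 26.4 TPM, Hoxd4 3.99, Hoxc4 0.655 and Hoxb4 0.638 TPM.

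HoxA was near silent apart from the neighbours Hoxa3 and Hoxa4. Hoxa4 (ENSMUSG00000000942, chr6:52189671-52191753, minus strand) was at 69.5 and 27.9 TPM in Zfp541+/- and at 4.52 and 3.81 TPM in the KO-labelled libraries. The groups did not overlap: the lower control was above the higher KO-labelled library, and the KO-labelled pair lay close together. The means were 48.7 ± 29.5 TPM (SD, n = 2) and 4.17 ± 0.502 TPM (SD, n = 2), a ratio of 11.7. The log2 fold change on the log2(TPM + 1) scale was -3.13 with a standard error of 0.53, and limma's moderated test gave an unadjusted p of 0.0033 and an adjusted p of 0.310 over 14512 genes, so the difference did not pass the threshold of 0.05. Of the genes tested, 0.482% had a log2 fold change as low or lower, and 0.648% a p as small or smaller.

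Hoxa3, which patterns the pharyngeal region of the embryo, was at 11.8 and 2.67 TPM in Zfp541+/- and at 0.80 and 1.09 TPM in the KO-labelled libraries. Here too both controls were above both KO-labelled libraries, with a log2 fold change of -1.82 ± 0.72 (SE) and an adjusted p of 0.362. The ratio of Hoxa4 to Hoxa3 was 5.92 and 10.4 in Zfp541+/- and 5.65 and 3.5 in the KO-labelled libraries. Hoxa3 (chr6:52169062-52213336, minus strand) spans Hoxa4 within its own longest transcript, with no exon in common. It shares 503 exonic bases with the antisense RNA Hoxaas2 on the other strand, which was at 0.39 TPM in control 1 and 0 elsewhere. The library kit does not mark strand, so reads from these shared bases cannot be told apart.

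The other 9 HoxA genes reached at most 0.39 TPM. Hoxa5, Hoxa6 and Hoxa7, next to Hoxa4 on the 5′ side, were above 0 in control 1 (0.13, 0.39 and 0.26 TPM) and listed at 0 in the other 3 libraries. Hoxa2, on the 3′ side of Hoxa3, was between 0 and 0.39 TPM in each library. The transcribed pair thus had low or silent genes on either side.

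HoxB was low but not silent. None of its 10 genes was at 0 in all libraries, and 1 of them, Hoxb7, averaged at least 1 TPM. Hoxb7, a gene of the embryonic trunk, was at 4.03 and 0.95 TPM in Zfp541+/- and at 0.37 and 1.5 TPM in the KO-labelled libraries. The groups overlapped, and the log2 fold change was -0.76 ± 0.67 (SE, adjusted p = 0.612, limma). Hoxb4 was between 0.44 and 0.86 TPM in every library. Hoxb9 was at 1.93 TPM in control 1 and at 0.20 to 0.69 TPM in the other libraries, and Hoxb13, the last gene of the cluster, was highest in control 2 at 1.07 TPM and lowest in control 1 at 0.19 TPM.

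No HoxC gene had a value above 0 in control 2. All 9 were listed at 0 there, against 2 at 0 in control 1 and 3 in each KO-labelled library. Over all rows, 31.3% were at 0 in control 2 and 26.7% to 27.6% in the other libraries. Of the HoxC genes, 5 were above 0 in the other 3 libraries and all 5 were at 0 in control 2. Of the 16505 rows that were above 0 in those 3 libraries, 5.01% were at 0 in control 2, and of the 2203 among them with a mean under 1 TPM, 26.5%. Over all clusters, 20 Hox genes were above 0 in those 3 libraries and 8 of them were at 0 in control 2. HoxC was singled out after these values were seen, so its count is a description.

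Hoxc6, a gene of the embryonic thorax, was the only HoxC gene with a mean of at least 1 TPM. It was at 6.98 TPM in control 1, 0 in control 2, and 1.3 and 1.06 TPM in the KO-labelled libraries. The groups overlapped, since the KO-labelled libraries lay between the controls, and the log2 fold change was -0.38 ± 1.09 (SE, adjusted p = 0.891, limma). Hoxc10 was at 2.49 TPM, Hoxc8 at 1.57, Hoxc4 at 1.26 and Hoxc5 at 1.09 TPM in control 1, and none of these 4 reached 1 TPM in another library.

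HoxD held the most transcribed genes, 5 of 9. Hoxd8 (chr2:74704615-74707933, plus strand), active in the trunk of the embryo, was at 41.2 and 11.5 TPM in Zfp541+/- and at 18.9 and 25.3 TPM in the KO-labelled libraries. It was well above 1 TPM in all 4 libraries, with the KO-labelled libraries between the controls, and its log2 fold change was -0.01 ± 0.66 (SE, adjusted p = 0.997, limma). Hoxd9 (chr2:74697727-74700208, plus strand), its neighbour on the 5′ side, was at 17.9 and 0.33 TPM in Zfp541+/- and at 2.81 and 3.35 TPM in the KO-labelled libraries. Control 1 was thus 54.4 times control 2 for Hoxd9 but 3.58 times for Hoxd8. The log2 fold change of Hoxd9 was -0.30 ± 1.36 (SE, adjusted p = 0.933).

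Hoxd4, which patterns the hindbrain and neck vertebrae, was at 10.4 and 0.15 TPM in Zfp541+/- and at 2.12 and 3.31 TPM in the KO-labelled libraries (log2 fold change 0.02 ± 1.2 SE, adjusted p = 0.994, limma). Hoxd3 was at 6.89 and 0 TPM in Zfp541+/- and at 0.70 and 1.58 TPM in the KO-labelled libraries (-0.42 ± 1.10, adjusted p = 0.877), and Hoxd10, a limb and posterior trunk gene, at 5.15 and 0 TPM against 0.99 and 0.70 TPM (-0.43 ± 0.97, adjusted p = 0.852). All 3 had control 1 highest and control 2 lowest. Hoxd3 and Hoxd4 share 388 exonic bases on the same strand, so part of their reads may be split between them. Hoxd1, Hoxd11, Hoxd12 and Hoxd13 reached at most 0.25 TPM.

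For the adjacent genes Hoxd8 and Hoxd9, the 250 bases before each RefSeq start (GRCm38.p6) are shown, 5′ to 3′ on the plus strand. Capitals mark matches to the motifs searched on both strands. These were the TATA box TATAAA, the CCAAT box with the letters CCAAT, the GC box with GGGCGG, and the HOX and PBX site with TGATTNAT, none of which holds another. The Hoxd8 stretch is chr2:74704365-74704614 and the Hoxd9 stretch is chr2:74697513-74697762. The Hoxd9 stretch ends inside the gene as GENCODE places it.
Hoxd8: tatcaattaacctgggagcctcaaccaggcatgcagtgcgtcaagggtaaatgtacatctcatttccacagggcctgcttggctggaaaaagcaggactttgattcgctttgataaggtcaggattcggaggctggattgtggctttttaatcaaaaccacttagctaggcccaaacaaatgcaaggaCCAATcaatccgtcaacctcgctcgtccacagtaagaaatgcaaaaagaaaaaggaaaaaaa
Hoxd9: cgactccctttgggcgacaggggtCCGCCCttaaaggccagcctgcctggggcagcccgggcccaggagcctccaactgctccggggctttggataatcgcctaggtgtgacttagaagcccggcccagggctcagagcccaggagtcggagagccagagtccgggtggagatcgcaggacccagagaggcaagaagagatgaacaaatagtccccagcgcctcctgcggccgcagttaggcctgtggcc
Hoxd8 held 1 CCAAT match and had 44.4% GC and 6 CpG, and Hoxd9 held 1 match to GGGCGG (as CCGCCC) and had 65.2% GC and 13 CpG. Of 32851 promoters, 33.8% held CCAAT and 32.7% GGGCGG. The table held 24 promoters of 22 Hox genes, of which 58.3% held CCAAT, 41.7% GGGCGG, 16.7% TATAAA (12.4% of all) and 8.3% TGATTNAT (2.8% of all). Median GC was 58.6% for the Hox promoters and 52.4% for all. A match is a description of letters and says nothing about binding.

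**Figure D2:**
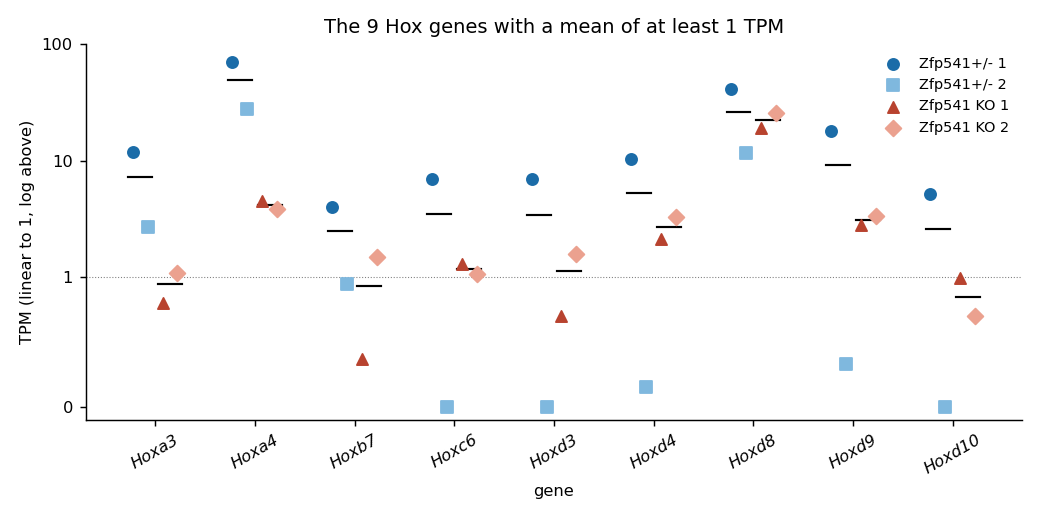
TPM of the 9 transcribed Hox genes in each library, on an axis linear to 1 and logarithmic above, with a bar at each group mean. Both controls lie above both KO-labelled libraries for Hoxa3 and Hoxa4, while the KO-labelled libraries lie between the controls for Hoxc6 and the HoxD genes.

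The 9 transcribed genes were tested in a limma fit over 14512 genes. No Hox gene passed an adjusted p of 0.05, and over all genes 0% did. With another method, the paper called genes in both directions at a false discovery rate of 0.05, also from 2 samples per genotype. Before adjustment, 10.7% of all genes were higher in Zfp541 KO at p under 0.05, and 3.73% lower (1549 and 542 genes), and Hoxa4 was the only Hox gene among them. With 2 libraries against 2, an exact two-sided permutation test of a single gene cannot go below p = 0.33. The median log2 fold change was -0.42 for the 9 Hox genes, 8 of which were lower in Zfp541 KO, and 0.28 for all genes, 31.0% of which were lower. Control 1 set several of these: Hoxb7, Hoxc6, Hoxd3 and Hoxd10 would not have reached a mean of 1 TPM without it, so the 9 genes were chosen in part by its high values and their median supports nothing.

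The groups did not overlap for 2 of 9 Hox genes, Hoxa3 and Hoxa4, both lower in Zfp541 KO, and for 12.1% of all genes in that direction. No Hox gene was higher without overlap, against 38.6% of all genes. Hoxb7, Hoxc6, Hoxd3 and Hoxd10 passed the filter through control 1, where they were highest, so they could not be higher without overlap. The absence of such genes therefore supports nothing. With no filter, 2 Hox genes were higher and 4 lower without overlap. The pattern with control 1 highest and control 2 lowest of the 4 libraries held for 6 of 9 Hox genes (Hoxc6, Hoxd3, Hoxd4, Hoxd8, Hoxd9 and Hoxd10) and for 20.3% of all genes. Hoxc6, Hoxd3 and Hoxd10 passed the filter through control 1, which the pattern itself requires to be highest, so this count supports nothing either.

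The direction of several differences turned on the control used. Without control 1, 4 Hox genes passed as higher in Zfp541 KO (Hoxc6, Hoxd4, Hoxd8 and Hoxd9) and Hoxa4 as lower, with log2 fold changes of 1.12, 1.67, 0.87, 1.61 and -2.49. Without control 2, 7 Hox genes passed as lower, with Hoxd4 at -1.63, Hoxd9 at -2.22 and Hoxa4 at -3.77. In these fits the lone control is assumed to vary as little as the KO-labelled pair, and 7102 and 4377 genes passed in all. Hoxa4 kept its direction with either control left out, from -3.77 to -2.49, as did Hoxa3 (-2.72 to -0.92) and Hoxb7 (-1.44 to -0.08). The sign of Hoxc6, Hoxd3, Hoxd4, Hoxd8, Hoxd9 and Hoxd10 differed between the fits with either control alone. Except for Hoxb7, these signs were fixed by the order of the libraries. Both controls lay above both KO-labelled libraries for Hoxa3 and Hoxa4, and the KO-labelled libraries lay between the controls for the genes that differed. The signs therefore add no support to the differences.

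**Figure D3:**
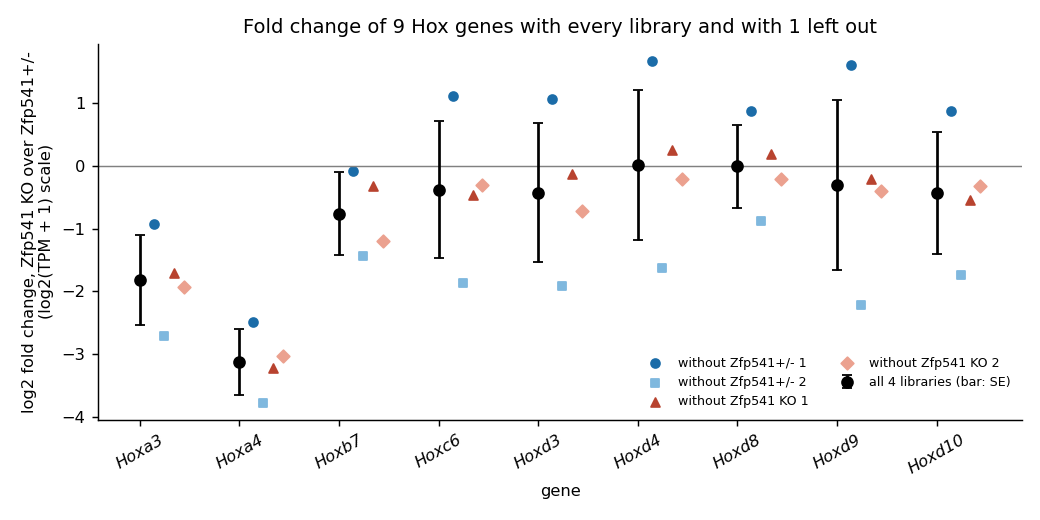
Log2 fold change of each transcribed Hox gene, Zfp541 KO over Zfp541+/-, on the log2(TPM + 1) scale, with all libraries (black, bar: SE) and with 1 library left out (colours). Hoxa4 stays between -3.77 and -2.49, while the 5 HoxD genes and Hoxc6 change sign with the control left out. The order of the control and KO-labelled values fixes these signs.

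HoxC and HoxD were highest in control 1 and lowest in control 2, as were the Leydig cell and macrophage markers. Insl3, the Leydig cell hormone, was at 1925 and 4.99 TPM in Zfp541+/- and at 186 and 366 TPM in the KO-labelled libraries, and Cyp11a1, which makes the first steroid of the pathway, at 235 and 0.72 TPM against 18.7 and 16.8 TPM. Hsd3b1, a later enzyme of it, was at 425 and 4.77 TPM against 93.4 and 81.9 TPM, and Lhcgr, the luteinizing hormone receptor, at 36.7 and 0 TPM against 7.78 and 12.2 TPM. Set against the summed Leydig markers, the HoxD genes other than Hoxd8 came to 1.40 and 2.67 TPM per 100 TPM in Zfp541+/- and to 2.06 and 1.81 TPM in the KO-labelled libraries. That is a 1.91-fold range, against 84.8-fold before scaling. The range was 115-fold when set against the Sertoli cell markers and 5.28-fold when set against the macrophage markers. Hoxd8, left out of this set, spanned 45.3-fold under the Leydig scaling. In control 2 the set held only Hoxd4 at 0.15 TPM and Hoxd9 at 0.33 TPM. The set and the Leydig markers shared their highest and lowest library beforehand, so the narrower range supports nothing. The HoxC sum came to 0.484 and 0 TPM per 100 TPM of Leydig markers in Zfp541+/- and to 1.02 and 0.580 TPM in the KO-labelled libraries, so it stayed at 0 in control 2. This scaling was chosen after the values were seen, over 4 libraries, and the part of Leydig cell RNA in the HoxC and HoxD levels was not tested.

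The same scaling did not even out the other genes. Hoxa4 came to 2.39 and 155 TPM per 100 TPM of Leydig markers in Zfp541+/- and to 1.36 and 0.757 TPM in the KO-labelled libraries, and Hoxd8 to 1.41 and 64.1 TPM against 5.69 and 5.03 TPM. In control 2, Hoxa4 at 27.9 TPM and Hoxd8 at 11.5 TPM were the only Hox genes above 2.67 TPM. The part of Leydig cell or macrophage RNA in the levels of Hoxa4 and Hoxd8 was not tested.

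**Figure D4:**
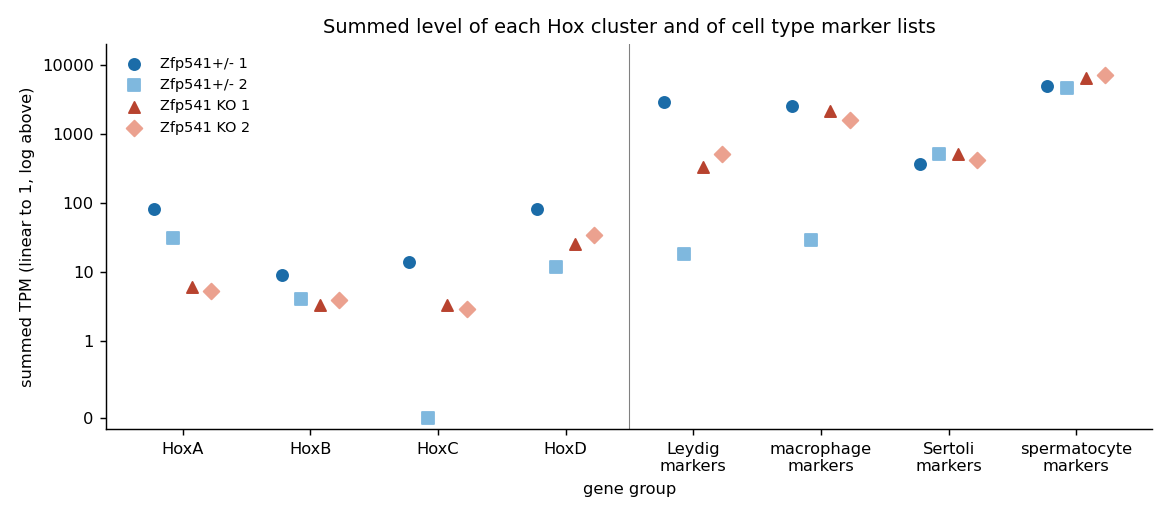
Summed TPM of each Hox cluster (left) and of 4 lists of cell type markers (right) in each library, on an axis linear to 1 and logarithmic above. HoxC, HoxD, the Leydig markers and the macrophage markers are all lowest in Zfp541+/- 2, whereas HoxA is lowest in the KO-labelled libraries and the spermatocyte markers lie between 4614 and 7001.

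Some germ cell markers differed between the groups too. Of 13 spermatocyte markers tested, none passed the adjusted threshold, 2 were lower without overlap in Zfp541 KO and 6 were higher, near the shares of 12.1% and 38.6% over all genes. The 2 lower were Ccna1, a cyclin of late spermatocytes, at 48.2 and 4.83 TPM against 2.20 and 1.80 TPM, and Mael, of the piRNA pathway, at 1194 and 1039 TPM against 719 and 778 TPM. Besides Mael, the most abundant were Sycp3 and the chromosome axis gene Hormad1. Sycp3 was at 1108 and 1263 TPM in Zfp541+/- and at 2093 and 2196 TPM in the KO-labelled libraries, and Hormad1 at 531 and 728 TPM against 1145 and 1232 TPM. The 13 markers summed to 4931 and 4614 TPM in Zfp541+/- and to 6461 and 7001 TPM in the KO-labelled libraries. Hist1h1t, the testis histone H1 of pachytene cells, was between 1.00 and 2.55 TPM. The paper describes the sorted cells as enriched for pachytene spermatocytes with this histone (H1t). How the RNA level of Hist1h1t relates to the share of such cells was not tested. The 9 round spermatid markers summed to 24.7 and 17.6 TPM in Zfp541+/- and to 32.6 and 32.5 TPM in the KO-labelled libraries. Spaca1, an acrosome membrane protein, gave most of this outside control 1, at 7.34 and 13.9 TPM against 27.0 and 26.6 TPM, followed by the kinase Tssk1 at 1.99 to 6.81 TPM and the transition protein Tnp2 at 0 to 7.59 TPM. The part of spermatocyte stage in the Hoxa4 level was not tested. Spermatogonial markers, led by Uchl1, Stra8 and Id4, summed to 451 to 1060 TPM, and peritubular myoid markers, led by Tagln, Acta2 and Ptch1, to 17.3 to 28.2 TPM. Endothelial markers, led by Cdh5, Pecam1 and Kdr, summed to 1.48 to 8.90 TPM and red blood cell markers, led by the globin genes Hba-a2, Hbb-b1 and Hba-a1, to 28.8 to 374 TPM.

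Among the noncoding rows of the clusters, 16 of 22 listed genes had a row, 10 of these were at 0 in all libraries and 3 were tested, with none past the threshold. Hoxd3os1, antisense to Hoxd3 and Hoxd4, was at 21.7 and 7.44 TPM in Zfp541+/- and at 0.30 and 2.73 TPM in the KO-labelled libraries (log2 fold change -2.65 ± 0.80 SE, adjusted p = 0.319, limma). Hoxb5os was at 8.99 and 4.84 TPM against 0.43 and 2.11 TPM (-1.86 ± 0.60, adjusted p = 0.322). Both had every control above every KO-labelled library, as 12.1% of all genes did. Hoxd3os1 shares 347 exonic bases with each of Hoxd3 and Hoxd4, and Hoxb5os shares 100 with Hoxb5, on opposite strands. In control 2 Hoxd3 was at 0 and Hoxd4 at 0.15 TPM. How reads from shared bases were divided was not tested. Mir196a-1, a microRNA gene of HoxB, was at 7.90 TPM in the first KO-labelled library and at 0 in the other 3, and Hotairm1, a noncoding RNA of HoxA, was at 2.45 and 1.00 TPM in the KO-labelled libraries and at 0 in both controls. Hotair and Hottip were at 0.

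The partners of HOX proteins were transcribed throughout. Of 9 cofactor genes 8 were tested and none passed the threshold. Pbx4, the PBX gene of spermatocytes, was at 220 and 183 TPM in Zfp541+/- and at 177 and 224 TPM in the KO-labelled libraries, and Pbx2 was at 34.5 and 51.4 TPM against 72.3 and 46.6 TPM. Pbx3 was the only one without overlap, at 28.6 and 30.2 TPM against 86.0 and 81.8 TPM (log2 fold change 1.48 ± 0.19 SE, adjusted p = 0.310, limma). Pknox1 averaged 29.4 TPM, and the other 5 cofactor genes, Meis1, Meis2 and Meis3 among them, averaged 0.205 to 3.88 TPM, within the range of the Hox genes. The Cdx and ParaHox genes, relatives of the Hox genes outside the clusters, were at most 0.23 TPM, with 5 of 6 at 0 in all libraries.

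None of the 21 Polycomb and trithorax regulators, all tested, passed the threshold. Their median log2 fold change was 0.59, against 0.28 for all genes, and 16 of 21 were higher in Zfp541 KO without overlap, with 0 lower, against 38.6% and 12.1% of all genes. The 3 most abundant were Ezh2, the histone H3 methyltransferase of Polycomb (119 and 96.8 TPM against 157 and 167 TPM), Rnf2, the ubiquitin ligase of the other Polycomb complex (115 and 92.8 TPM against 160 and 166 TPM), and Phc1 (113 and 76.9 TPM against 139 and 132 TPM). All 3 were higher in both KO-labelled libraries than in both controls. From these same data, the paper called Ezh1, Ezh2, Suz12, Jarid2, Rnf2, Bmi1, Kmt2b and Ash1l upregulated in Zfp541 KO. The list of 21 holds these genes and was chosen with earlier results known, so the count of 16 is a description and supports nothing. Genes on the flanks of the clusters were mostly transcribed: 15 of 18 with a row were tested, none passed, and Atp5g3, Atp5g2 and Mtx2, the 3 with the highest means, averaged 523, 420 and 194 TPM. The homeobox genes Evx1 and Evx2, at the posterior ends of HoxA and HoxD, were at most 0.39 TPM and at 0. On the anterior side of HoxA, Skap2 was at 83.1 to 105 TPM.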

How the data were processed

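GFP-positive testis cells of 2 libraries per genotype were sequenced by the authors as single-end 75-base reads from a kit that does not mark strand. Per the labels and the study's methods, reads were trimmed with Trim Galore 0.5.0 and cutadapt 1.16, aligned to mm10 with STAR 2.6.0a and quantified with RSEM 1.3.1. The deposited files give TPM for each of 24411 gene names, 27 of which are dates left by a spreadsheet. TPM keeps no depth. Samples were grouped by genotype label.

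Tests used limma 3.58.1 in R 4.3.3 on log2(TPM + 1) with a mean-variance trend, over the 14512 genes that averaged 1 TPM or more, adjusted by Benjamini-Hochberg. The fit was checked on simulated data. Hox genes with that mean are named in full and the others by count and range. Of each further gene list, the members past the threshold are named, otherwise the 3 with the highest mean; the others named were chosen after their values were seen. The members and lists were chosen with earlier results of these data known. Positions and homeoboxes come from GENCODE M21, promoters from RefSeq. Alternatives were other pseudocounts, filters, scalings, thresholds, a replicate block and leaving out each library. Some items are not reported here.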

Additional observations from a re-analysis of the deposited data

How the results depend on the processing

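Under alternatives that kept all 4 libraries, no Hox gene passed the threshold, and Hoxa4 ran from -3.43 to -2.43 (log2), adjusted p 0.0754 to 0.501. Hoxa3, Hoxa4 and Hoxb7 kept their sign throughout. With a pseudocount of 0.1, the Hox median was 0.19, above 0, and Hoxc6 was at 0.60, Hoxd3 at 0.47, Hoxd8 at 0.0044, Hoxd9 at 0.19 and Hoxd10 at 0.37. Hoxd4 was at -0.21 when 5 was the pseudocount, at -0.13 after scaling by median ratios and at -0.25 after quantile normalization. These signs are of values close to 0 against their errors, and the cause was not tested. Same-numbered libraries deviated with a correlation of -0.16 across genes. With the replicate block 0 genes passed, and the median of the Hox genes stayed at -0.42. With the crossed pairing, added after this correlation was seen, 7 genes passed as higher and 80 as lower, with 0 Hox genes.

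Leaving out 1 library in turn, 0 to 4 Hox genes passed as higher and 0 to 7 as lower, and 0 to 5680 and 0 to 1970 of all genes. The Hox median ran from -1.87 to 0.88. The sign changes listed next follow from KO-labelled values that lie between the controls. Ranges of the genes that changed sign were -1.87 to 1.12 for Hoxc6, -1.91 to 1.07 for Hoxd3, -1.63 to 1.67 for Hoxd4, -0.88 to 0.87 for Hoxd8, -2.22 to 1.61 for Hoxd9 and -1.74 to 0.88 for Hoxd10, the low ends without control 2 and the high ends without control 1. The transcribed count was 24, 15 and 3 at thresholds of 0.1, 0.5 and 5 TPM, 2 with at least 1 TPM in each library, and 5 to 10 with 1 library left out (5 without control 1). Groups without overlap numbered 2 higher and 4 lower with no filter, and 0 to 6 higher and 2 to 9 lower with 1 library left out. Depth is unknown, so values under 1 TPM carry no stated error.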
